A study of Mus musculus with 12 samples.

Results

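The enzymes examined here build the characteristic lipids of myelin, and 9 genes listed by mouse symbol (Sptlc2, Degs1, Cers2, Elovl1, Elovl7, Fa2h, Ugt8a, Gal3st1 and Aspa) were taken from the 54838 genes of the count files. All 9 were matched by Ensembl gene identifier and all 9 passed the filter on low counts, with 1692 to 59111 counts per library. RNA was sequenced from spinal cord cells enriched on a Percoll gradient, in 12 libraries of 4 groups with 3 libraries each. Control mice were Olig1+/+;Tet1fl/fl and mutant mice Olig1cre/+;Tet1fl/fl, so that both genotypes carried the floxed Tet1 allele and only the mutant carried cre. Cre was expressed from the Olig1 locus, which leaves Tet1 intact in cells that never used that locus and replaces 1 Olig1 allele in the mutant. Lysolecithin (LPC) was injected into the ventrolateral white matter to strip myelin, and tissue was taken 4 days later (4dpl). The age listed for all libraries is postnatal day 60. Unlesioned tissue came from the opposite, uninjected side of cords that had received LPC, so it is not tissue of untreated mice, and which libraries share an animal is not given in the sources used here. The purpose of the comparisons was to ask how the lesion response of these cells depends on Tet1.

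Myelin is unusually rich in galactosylceramide and its sulfated form, sulfatide. Both are made from a ceramide that carries a very long, often 2-hydroxylated acyl chain, and loss of the enzymes that add the galactose or the sulfate disturbs the contact between myelin and axon. Ceramide itself starts with serine palmitoyltransferase, continues through a ceramide synthase that selects the acyl chain, and is completed by a desaturase. Oligodendrocytes also use acetate split from N-acetylaspartate for the synthesis of these lipids.

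The libraries held 34805086 to 67251544 counts each, with a median of 46715707. Counts of Tet1, the targeted gene, did not tell the genotypes apart. They stood at 14.9 to 18.3 CPM (counts scaled to a common library total) in control and 9.94 to 16.4 CPM in mutant unlesioned libraries (2-sided exact permutation test of the means, p = 0.3). At 4dpl they were 11.7 to 12.5 CPM in control and 10.9 to 21.5 CPM in mutant libraries (exact permutation p = 0.5), and with 3 libraries a group this test cannot go below 0.1. The gene-level count includes exons that the deletion leaves in place and cells without cre, so it does not check the labels, and "mutant" is used below as the labels give it. Mature oligodendrocyte markers were abundant in every library (10 genes, 14938 to 71558 summed CPM). But so were erythroid (3 genes, 9600 to 80722 CPM), neutrophil (3 genes, 16737 to 92909 CPM) and microglia and macrophage transcripts (8 genes, 12631 to 30979 CPM). Most of the last sum came from 1 gene, Lyz2, with group means of 11404 to 19452 CPM. In such bulk preparations, fewer oligodendrocytes and less RNA per oligodendrocyte cannot be told apart. A pair of libraries stood apart in their oligodendrocyte content. The geometric mean of the 10 markers was 2757 CPM in mutant 4dpl replicate 3 and 470.0 CPM in mutant unlesioned replicate 2. It was 861 to 1172 CPM in the other 10. The main enzyme fold changes that rest on this pair are given with and without it. Spread, correlation and list values are given with all libraries only.

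Per kilobase of exon, a scale on which genes can be compared, the enzymes spanned a wide range of levels. Degs1 was the highest with a mean of 146 ± 39.2 CPM per kb (SD, n = 12 libraries), followed by Cers2 at 125 ± 52.4, Fa2h at 96.8 ± 55.6, Ugt8a at 92.2 ± 55.2 and Elovl1 at 78.1 ± 22 CPM per kb. Gal3st1 (38.6 ± 32.1), Aspa (31.6 ± 16.2) and Elovl7 (30.3 ± 15.4) formed a lower tier, and Sptlc2 was the lowest at 15.6 ± 4.18 CPM per kb. Only some steps of this order were seen in nearly every library. Elovl7 exceeded Sptlc2 in 12 of 12 libraries, Elovl1 exceeded Gal3st1 in 11 and Cers2 exceeded Fa2h in 10. The neighbours Fa2h and Ugt8a, Ugt8a and Elovl1, Gal3st1 and Aspa, and Aspa and Elovl7 kept their order in only 7, 5, 8 and 7 of 12 libraries, and Degs1 exceeded Cers2 in 8. Mean log2 differences between these 5 neighbouring pairs were smaller than their SD over libraries. The Cers2 and Elovl1 exons overlap those of genes on the opposite strand over a small part of their length (6330562C20Rik over 3.92% and Setdb1 over 2.04% of Cers2, Cdc20 over 1.94% of Elovl1), and whether counting used strand is not given in the sources used here. The remaining 7 shared no exon bases with another gene of the GENCODE annotation.

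The start regions of these genes are of more than one kind, and 4 are shown because they mark the extremes and the genes on which the results below turn. TET1 acts on methylated cytosine in CG dinucleotides, which are set in capitals. The windows run from 250 bases before to 50 bases after the start site as RefSeq gives it on GRCm38.p6, are read 5′ to 3′ on the gene's strand, and matched 8 of the 9 genes (Fa2h had no entry).
Cers2 (chr3:95314940-95315239, plus strand): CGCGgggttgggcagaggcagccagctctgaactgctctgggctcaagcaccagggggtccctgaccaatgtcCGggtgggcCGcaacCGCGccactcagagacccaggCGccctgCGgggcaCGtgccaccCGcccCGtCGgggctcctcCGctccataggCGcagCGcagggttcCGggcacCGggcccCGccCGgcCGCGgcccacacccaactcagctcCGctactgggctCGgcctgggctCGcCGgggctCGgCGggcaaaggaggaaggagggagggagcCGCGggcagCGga
Ugt8a (chr3:125938603-125938902, minus strand): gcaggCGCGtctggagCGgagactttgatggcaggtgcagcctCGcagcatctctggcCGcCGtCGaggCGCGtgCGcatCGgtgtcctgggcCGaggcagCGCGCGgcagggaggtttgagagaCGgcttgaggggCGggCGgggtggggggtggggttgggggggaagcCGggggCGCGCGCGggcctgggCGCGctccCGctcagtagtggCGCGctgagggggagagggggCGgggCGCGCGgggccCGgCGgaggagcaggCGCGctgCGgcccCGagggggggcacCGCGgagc
Gal3st1 (chr11:3983386-3983685, plus strand): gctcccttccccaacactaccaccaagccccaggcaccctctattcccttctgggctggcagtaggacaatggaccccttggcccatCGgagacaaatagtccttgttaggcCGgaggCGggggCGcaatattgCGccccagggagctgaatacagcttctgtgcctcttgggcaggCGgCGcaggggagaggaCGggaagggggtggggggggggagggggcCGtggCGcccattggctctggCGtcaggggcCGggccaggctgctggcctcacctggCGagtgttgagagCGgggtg
Aspa (chr11:73324588-73324887, minus strand): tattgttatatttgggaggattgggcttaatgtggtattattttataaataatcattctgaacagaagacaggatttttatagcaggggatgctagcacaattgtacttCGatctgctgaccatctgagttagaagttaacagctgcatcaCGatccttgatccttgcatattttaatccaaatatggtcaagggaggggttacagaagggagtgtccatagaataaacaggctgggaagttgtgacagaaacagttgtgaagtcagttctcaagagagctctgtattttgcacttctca
Ugt8a held 40 CG dinucleotides in 300 bases, more than 96.1% of the 32851 windows of the table, whose median was 7. Cers2 and Elovl7 held 30 each, Degs1 21, Elovl1 20, Sptlc2 19 and Gal3st1 14. Aspa held 2, fewer than the lower quartile of 3, and had a GC content of 39.0% against 59.3% to 78.3% in the other 7. The motif TATAAA, searched on both strands, occurred 3 times in the Aspa window and in none of the others, and 13.6% of all windows held it. CCGG, which reads the same on both strands and overlaps the CG count, was present in all windows but that of Aspa, and in 52.8% of the table. The sequence ACAAAG, searched on both strands, was in none of the 8 and in 18.7% of the table. Methylation was not analysed here, so these letters are a description of the genes only.

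Of the enzymes of the ceramide backbone, Cers2 had higher values in all lesioned libraries of either genotype, Sptlc2 in those of the mutant alone, and Degs1 in neither. Sptlc2 encodes the long-chain subunit of serine palmitoyltransferase, which condenses serine with palmitoyl-CoA. It was counted at 152, 70.0 and 74.1 CPM in the 3 unlesioned control libraries, 166, 156 and 149 CPM in control 4dpl, 107, 102 and 101 CPM in unlesioned mutant and 136, 161 and 140.4 CPM in mutant 4dpl. The mutant groups did not overlap, whereas control unlesioned replicate 1 reached the level of the lesioned control libraries. The log2 fold change at 4dpl was 0.67 ± 0.27 (SE) in control and 0.50 ± 0.27 in mutant. Cers2, the ceramide synthase that prefers very long acyl chains, was counted at 447, 222 and 275 CPM in unlesioned and 601, 526 and 474 CPM in 4dpl control libraries. In the mutant it was at 456, 231 and 368 CPM unlesioned and 478, 518 and 937 CPM at 4dpl. The lesioned libraries were all above the unlesioned ones in both genotypes, by a log2 fold change of 0.76 ± 0.35 in control and 0.87 ± 0.35 in mutant. Degs1, the desaturase that turns dihydroceramide into ceramide, showed no such order. It was at 451, 262 and 217 CPM in unlesioned control and 425, 366 and 356 CPM in control 4dpl. The corresponding mutant values of 309.8, 398 and 359.6 CPM and of 318, 575 and 512 CPM also overlapped, and the log2 fold changes were 0.30 ± 0.31 and 0.40 ± 0.31.

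**Figure D1:**
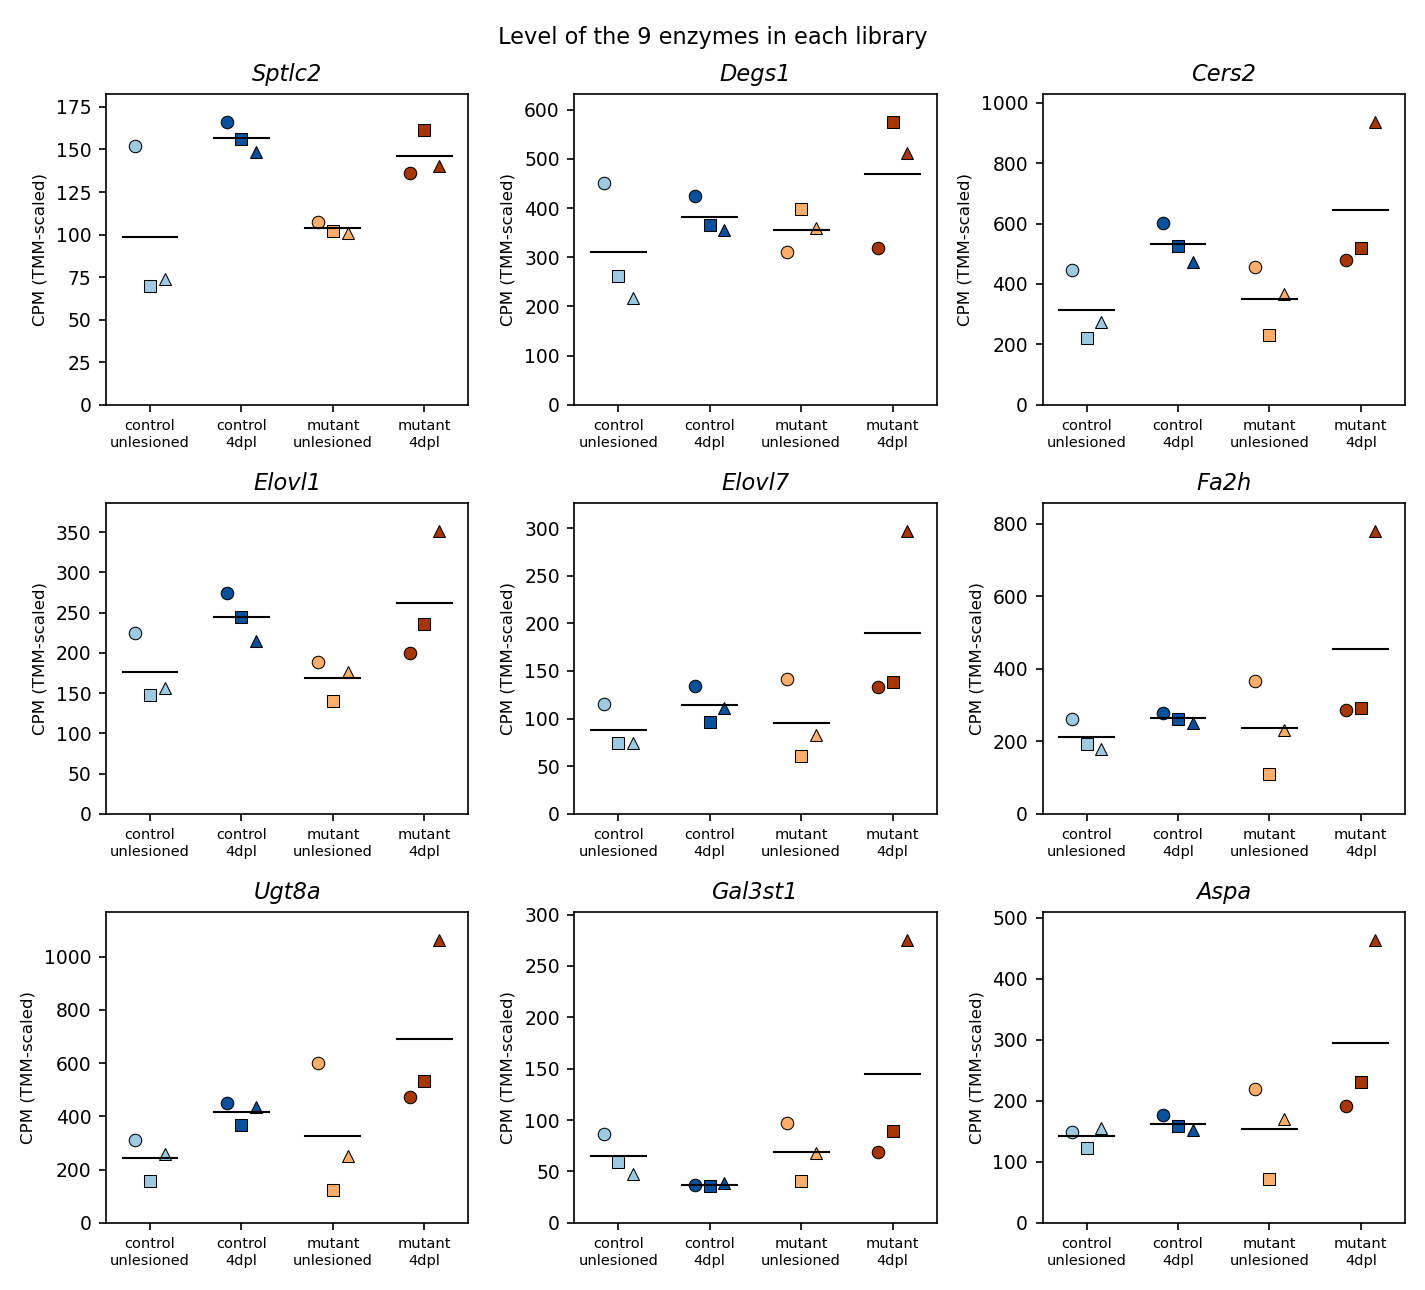
Level of each enzyme (vertical axis, TMM-scaled CPM from 0) in each of the 12 libraries by group (horizontal axis), with circles, squares and triangles for replicates 1, 2 and 3 and a line at the group mean. Mutant 4dpl replicate 3 is the highest library for 7 of the 9 genes, Sptlc2 and Degs1 being the exceptions, and the 3 control 4dpl libraries of Gal3st1 lie at 35.7 to 39.0 CPM, below the other 9.

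The enzymes that lengthen and hydroxylate the acyl chain shared 1 pattern, a high value in mutant 4dpl replicate 3. Elovl1 encodes the elongase of saturated very-long-chain acyl-CoA. It was counted at 225, 148 and 157 CPM in unlesioned control, 274, 245 and 215 CPM in control 4dpl, 189, 139.8 and 177 CPM in unlesioned mutant and 199.9, 236 and 352 CPM in mutant 4dpl. The mutant groups did not overlap, and the control groups overlapped through unlesioned replicate 1. Elovl7, a related elongase, was at 115, 74.7 and 74.0 CPM and 134, 96.7 and 111 CPM in the control groups, and at 141, 60.9 and 82.8 CPM and 133, 138 and 297 CPM in the mutant groups. The groups overlapped in both genotypes. Fa2h, the hydroxylase that places the 2-hydroxyl group on the acyl chain, was at 261, 192 and 180.0 CPM in unlesioned and 278, 262 and 252 CPM in lesioned control tissue. In the mutant it ranged from 111 to 367 CPM unlesioned (367, 111 and 231) and from 288 to 781 CPM at 4dpl (288, 293 and 781). The 3 mutant 4dpl libraries were above the 3 control 4dpl libraries, while the lesion contrast overlapped in each genotype. Log2 fold changes at 4dpl in control and mutant were 0.47 ± 0.27 and 0.64 ± 0.27 for Elovl1, 0.37 ± 0.36 and 1.0 ± 0.36 for Elovl7, and 0.32 ± 0.43 and 0.94 ± 0.43 for Fa2h.

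The last 2 steps of galactolipid synthesis had fold changes of opposite sign in control tissue, neither of them called by edgeR. Ugt8a, the galactosyltransferase that makes galactosylceramide, was counted at 310.4, 157 and 257 CPM in unlesioned control and 448, 369 and 434 CPM in control 4dpl. In the mutant it was at 602, 124 and 249 CPM unlesioned and 472, 533 and 1063 CPM at 4dpl. The control groups did not overlap (log2 fold change 0.79 ± 0.48), the mutant groups did through unlesioned replicate 1 (1.08 ± 0.48), and at 4dpl every mutant library exceeded every control library. Gal3st1, the sulfotransferase that makes sulfatide from galactosylceramide, had its lowest values in control 4dpl. It was at 86.6, 59.6 and 47.9 CPM in unlesioned control libraries and at 36.5, 35.7 and 39.0 CPM at 4dpl. In mutant libraries it was at 97.4, 41.1 and 67.6 CPM unlesioned and at 69.2, 89.1 and 275 CPM at 4dpl. The 3 control 4dpl libraries lay below all 9 others, and their SD of 1.71 CPM was the smallest of any group for this gene. Gal3st1 was the only one of the 9 enzymes with a fold change below 0 at 4dpl in control (log2 fold change -0.80 ± 0.45, edgeR quasi-likelihood test, unadjusted p of 0.0929, adjusted p = 0.212).

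Aspa, the aspartoacylase that frees acetate from N-acetylaspartate in oligodendrocytes, overlapped between the control groups. It was counted at 149, 122 and 155 CPM unlesioned and 177, 158 and 152 CPM at 4dpl (log2 fold change 0.19 ± 0.38). Mutant values were 219.9, 71.2 and 169.7 CPM unlesioned and 192, 230.3 and 464 CPM at 4dpl, with a log2 fold change of 0.94 ± 0.38. The mutant 4dpl libraries were all above the control 4dpl libraries.

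The question of the lesion contrast is how 4 days of demyelination changed these transcripts in each genotype. In control tissue 8 of the 9 log2 fold changes were above 0, with a median of 0.37 against -0.36 over all 31109 genes tested, yet none of the 9 was called (p below 0.01 and adjusted p below 0.05 over all genes) by edgeR. The background was 10.1% of genes called, and 2 members (Sptlc2 and Cers2) had an unadjusted p below 0.05. DESeq2 fitted to all 12 libraries also called none, DESeq2 fitted to the groups compared called Gal3st1 alone, as lower at 4dpl (adjusted p = 0.0125), and limma voom called Sptlc2, Cers2 and Elovl1. Cers2 and Ugt8a were higher in every lesioned than in every unlesioned control library and Gal3st1 was lower, where 16.5% of all genes did not overlap in the upward and 21.4% in the downward direction. Control unlesioned replicate 1 had the highest value of its group for 8 of the 9 enzymes, Aspa being the exception. Without this library edgeR called 2 members in control (Sptlc2 and Cers2), and the count over all genes, 3150 with all libraries, was 7401 without it and 1 without control unlesioned replicate 2.

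In mutant tissue all 9 log2 fold changes were above 0, from 0.40 for Degs1 to 1.08 for Ugt8a, with a median of 0.94 against -0.18 over all genes. EdgeR called none of them, beside a background of 0.135% of genes, and 7 had an unadjusted p below 0.05. DESeq2 called none in either fit and limma voom called Ugt8a alone (adjusted p = 0.0431). Without mutant unlesioned replicate 1, edgeR called Elovl7 and Ugt8a and 3430 genes in all, against 42 with every library. Sptlc2, Cers2 and Elovl1 did not overlap between the groups, all higher at 4dpl, where 18.8% of genes did so upward and 23.2% downward. Several of these values, but not those of Sptlc2 and Degs1, were lower without the pair of libraries that stood apart. The pair was chosen after seeing the data, for the highest and the lowest marker content, in opposite groups of this contrast. Leaving it out lowers enzymes that follow the markers by construction, so this fit cannot decide whether they change with the lesion. With both left out, the log2 fold change at 4dpl in mutant was 0.13 ± 0.27 for Aspa, -0.05 ± 0.31 for Gal3st1, -0.03 ± 0.30 for Fa2h, 0.25 ± 0.42 for Ugt8a and 0.29 ± 0.33 for Elovl7. In the same fit it was 0.53 ± 0.35 for Sptlc2, 0.43 ± 0.39 for Degs1, 0.28 ± 0.35 for Cers2 and 0.26 ± 0.29 for Elovl1. No member was called in it.

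**Figure D2:**
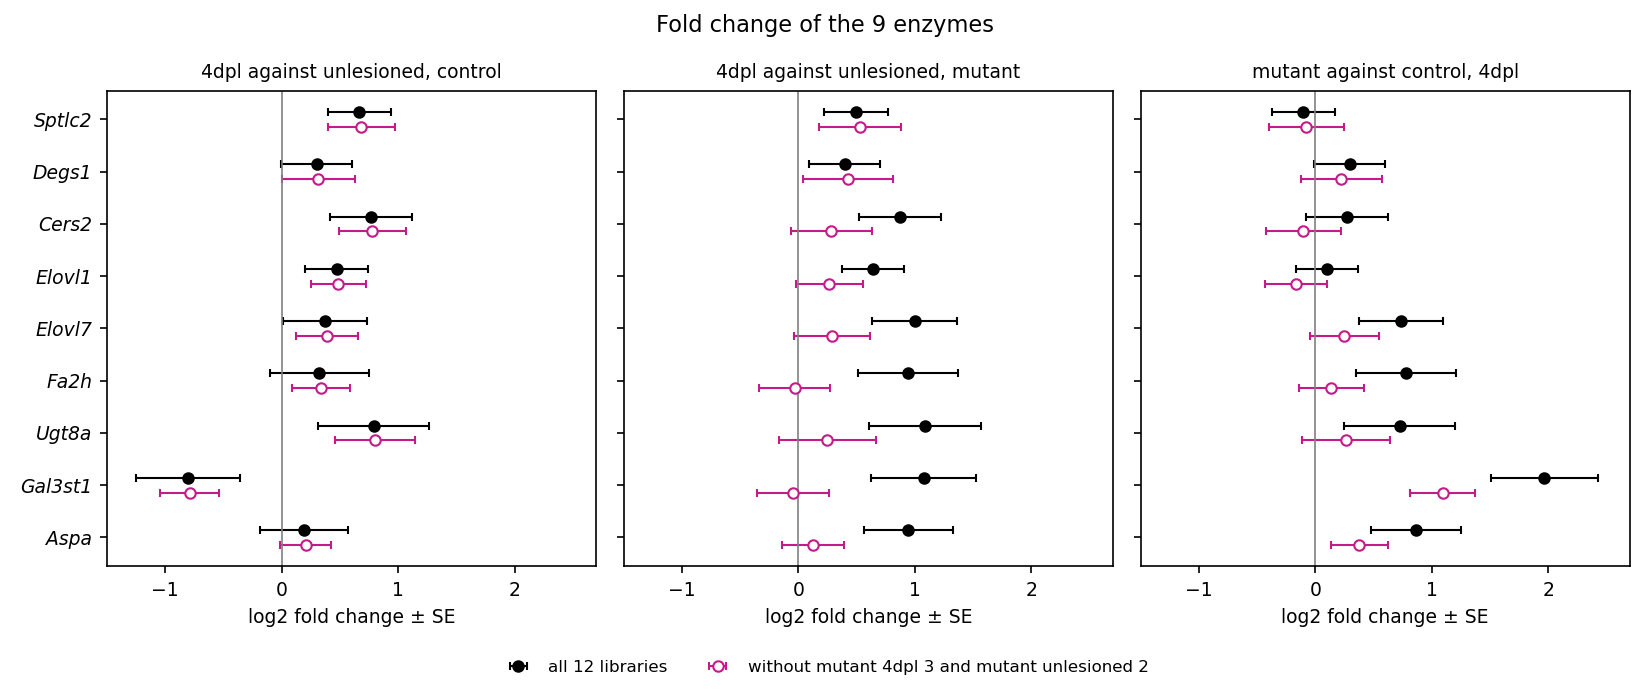
Log2 fold change with its SE (horizontal axis) of each enzyme (vertical axis) in 3 comparisons, from all 12 libraries (filled) and without mutant 4dpl replicate 3 and mutant unlesioned replicate 2 (open). In mutant tissue the open points of Fa2h, Gal3st1 and Aspa lie near 0 (-0.03, -0.05 and 0.13), whereas Gal3st1 at 4dpl stays above 1 (1.09) in mutant against control.

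Averaged over the genotypes, with 6 lesioned and 6 unlesioned libraries, Cers2 and Sptlc2 rose at 4dpl by edgeR, and the call of Sptlc2 depended on the tool. The log2 fold change was 0.82 ± 0.25 for Cers2 (edgeR, adjusted p = 0.0203) and 0.58 ± 0.19 for Sptlc2 (edgeR, adjusted p = 0.0287). These were 2 of 9, where 32.8% of all genes were called and 14.2% were called as higher. Ugt8a (0.94 ± 0.34, adjusted p = 0.0406), Elovl7 (0.68 ± 0.26, adjusted p = 0.0455) and Elovl1 (0.56 ± 0.19, adjusted p = 0.0321) passed the limit on adjusted p in edgeR but had p of 0.0152, 0.0180 and 0.0108, above the limit of 0.01. Fa2h (0.63 ± 0.30), Aspa (0.57 ± 0.27), Degs1 (0.35 ± 0.22) and Gal3st1 (0.13 ± 0.31) passed neither. DESeq2 on all 12 libraries called Cers2 (adjusted p = 0.00961) and Ugt8a (adjusted p = 0.0253) but not Sptlc2 (adjusted p = 0.0314, unadjusted p of 0.0131), and limma voom called Sptlc2, Cers2, Elovl1, Elovl7 and Ugt8a. All 9 averaged values were above 0, with a median of 0.58 against -0.28 for all genes. Both calls were lost without the pair of libraries that stood apart (Cers2 0.53 ± 0.23, edgeR, adjusted p = 0.0923, and Sptlc2 0.60 ± 0.23, adjusted p = 0.0658). With single libraries left out Cers2 was called in 6 of 12 fits and Sptlc2 in 2, and no member was called without control unlesioned replicate 2 or 3, control 4dpl replicate 1, mutant unlesioned replicate 2 or 3, or mutant 4dpl replicate 3. The microglia and macrophage list moved with this contrast. Of its 8 markers, 7 were called as higher (median log2 fold change 1.04). Its summed level, most of it Lyz2, was 12631 to 20707 CPM in unlesioned and 17949 to 30979 CPM in lesioned libraries. Of the 10 mature oligodendrocyte markers 2, Mbp and Mobp, were called as higher (median 0.58). So were 2 of 5 premyelinating oligodendrocyte (median 0.74), 2 of 5 oligodendrocyte progenitor (median 0.56) and 1 of 5 astrocyte markers (median 0.55). Of the 5 neuron markers 1 was called as lower. No endothelial, erythroid, neutrophil or B and plasma cell marker was called, and the medians of these lists were below 0. Schwann cells use the same galactolipid enzymes, and of their 4 tested markers 2 were called as lower, among them Prx (log2 fold change -1.69), and 1, Egr2, as higher. The 4 markers summed to 68.1 to 264 CPM over the libraries. The part of these cell types in the values of the enzymes was not tested.

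Between the genotypes in unlesioned tissue no difference larger than the spread of the libraries was detected. Log2 fold changes of mutant over control ran from -0.07 to 0.43 with a median of 0.11, none was called (0% of genes were, by edgeR), and none had an unadjusted p below 0.05 with all libraries. DESeq2 and limma voom called none either, with 1 member under an unadjusted p of 0.05 in limma voom. Over all genes edgeR had 1624 genes at an unadjusted p below 0.05, and DESeq2 called 45 genes with all libraries and 12 with the groups compared. No member was without overlap between the groups. The intervals were wide, for example -0.59 to 1.45 (95%) for Ugt8a and -0.86 to 1.04 for Gal3st1. Without the pair of libraries that stood apart all 9 values were above 0 and none was called, with Ugt8a at 0.82 ± 0.38 (edgeR, unadjusted p of 0.0483, adjusted p = 0.988), Fa2h at 0.51 ± 0.28, Aspa at 0.46 ± 0.24 and the others between 0.05 and 0.39. The sign depended on single libraries. With 1 library left out Ugt8a ran from -0.38 to 0.82, Fa2h from -0.31 to 0.51 and Aspa from -0.25 to 0.46, each lowest without mutant unlesioned replicate 1 and highest without mutant unlesioned replicate 2.

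At 4dpl 8 of the 9 log2 fold changes of mutant over control were above 0, the largest that of Gal3st1, and none was called by edgeR. Gal3st1 averaged 145 ± 114 CPM in mutant and 37.1 ± 1.71 CPM in control (SD, n = 3), a log2 fold change of 1.96 ± 0.46 (edgeR, unadjusted p of 0.000748, adjusted p = 0.224). Aspa (0.86 ± 0.38), Fa2h (0.78 ± 0.43), Elovl7 (0.73 ± 0.36) and Ugt8a (0.72 ± 0.48) followed, and Degs1, Cers2, Elovl1 and Sptlc2 were between -0.10 and 0.29. EdgeR called 0 of the 9 and 0% of all genes, although 2153 genes, Gal3st1 and Aspa among them, had an unadjusted p below 0.05. DESeq2 called Gal3st1 in both fits (adjusted p = 0.00902 with all libraries and 0.00195 with the groups compared), among 227 and 611 genes called. Limma voom called 34 genes and no member. Fa2h, Ugt8a, Gal3st1 and Aspa did not overlap between the groups, all higher in mutant, where 7.34% of genes did so upward and 5.44% downward. Without the pair of libraries that stood apart, Gal3st1 differed by 1.09 ± 0.28 (edgeR, adjusted p = 0.575), Aspa by 0.38 ± 0.24, Ugt8a by 0.27 ± 0.38 and Fa2h by 0.14 ± 0.28. In this comparison the 10 mature oligodendrocyte markers had a median of 0.67 and the 3 neutrophil markers a median of 0.76, none of them called.

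The difference between the lesion responses was tested as an interaction. For Gal3st1 it was 1.88 ± 0.63 on the log2 scale, the mutant change minus the control change (edgeR, 95% interval 0.52 to 3.23, unadjusted p of 0.010, adjusted p = 1.0). The other 8 enzymes lay between -0.17 and 0.75, and none had an unadjusted p below 0.05. Without the pair of libraries that stood apart the value for Gal3st1 was 0.74 ± 0.40 (edgeR, unadjusted p of 0.0858, adjusted p = 1.0), and the others lay between -0.56 and 0.11, 7 of the 8 below 0. With all libraries the median interaction was 0.82 for the 10 mature oligodendrocyte, 0.98 for the 3 neutrophil, 1.67 for the 3 erythroid and -0.42 for the 8 microglia and macrophage markers, none of them called, and their part in the value of Gal3st1 was not tested. None of the 9 and 0% of all genes were called by edgeR, with 1184 genes at an unadjusted p below 0.05, and DESeq2 and limma voom called 0 genes as well. The lesion and genotype comparisons above are made from the same libraries as this one.

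The oligodendrocyte content of the libraries was set beside each enzyme by dividing its level by the geometric mean of the 10 mature oligodendrocyte markers. The within-group SD of the log2 level fell from 0.55 to 0.16 for Aspa, from 0.62 to 0.21 for Fa2h, from 0.65 to 0.27 for Gal3st1, from 0.50 to 0.25 for Elovl7 and from 0.70 to 0.39 for Ugt8a. It grew for Sptlc2 (0.32 to 0.61) and Degs1 (0.37 to 0.61), and moved less for Cers2 (0.46 to 0.32) and Elovl1 (0.30 to 0.35). These SDs include the pair of libraries that stood apart in marker content, and their size without that pair was not tested. Expressed as a percentage of the marker mean, Gal3st1 was 3.22%, 3.57% and 3.58% in control 4dpl libraries. It was 10.02%, 6.67% and 5.39% in unlesioned control, 8.58%, 8.74% and 7.84% in unlesioned mutant and 6.97%, 7.60% and 9.99% in mutant 4dpl libraries. The control 4dpl values lay below the other 9, and both libraries that stood apart fell among the remainder on this scale. Aspa per marker was narrow by contrast, from 13.7% to 19.7% over all 12 libraries, and Fa2h ran from 20.3% to 32.3%.

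**Figure D3:**
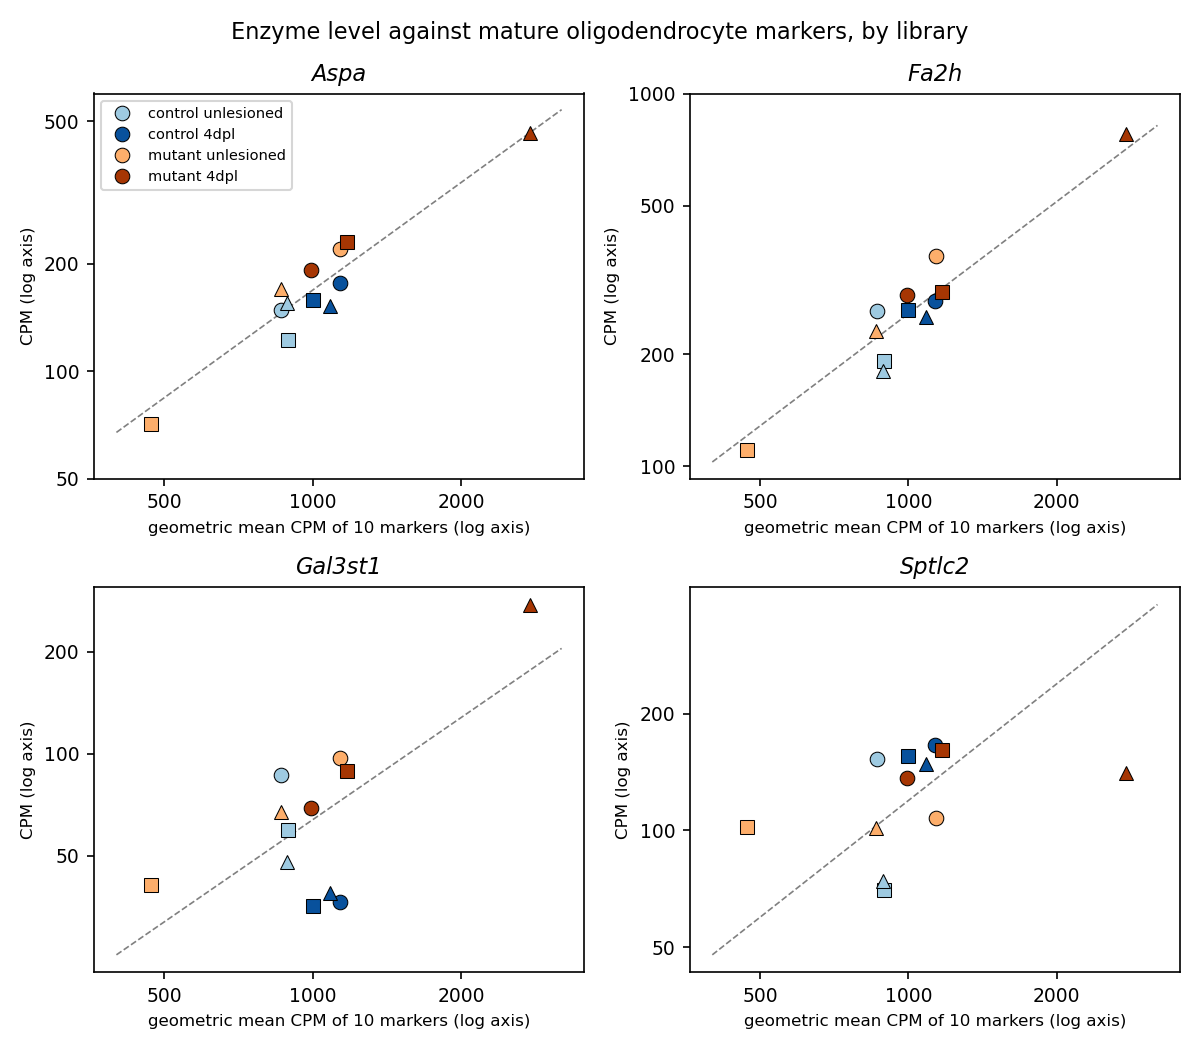
Level of 4 enzymes (vertical axis, CPM, log) against the geometric mean of the 10 mature oligodendrocyte markers (horizontal axis, CPM, log) in the 12 libraries, with circles, squares and triangles for replicates 1, 2 and 3 and a dashed line of constant ratio. Aspa and Fa2h follow the line from 470.0 to 2757 CPM of the marker mean, the 3 control 4dpl libraries of Gal3st1 lie together below it at 3.22% to 3.58%, and Sptlc2 does not follow it.

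With the libraries scaled on these markers in place of TMM, the lesion change of Gal3st1 was -1.09 ± 0.38 in control (edgeR, unadjusted p of 0.00982, adjusted p = 0.129) and -0.03 ± 0.38 in mutant. Its genotype difference at 4dpl was 1.24 ± 0.38 (unadjusted p of 0.00405, adjusted p = 0.961) and its interaction 1.06 ± 0.54 (unadjusted p of 0.0627, adjusted p = 0.941) in the same edgeR fit. No member was called on this scale in any of the 6 comparisons. The scaling also shifted the median log2 fold change of all genes, to -0.64 in the control lesion contrast, to -1.13 in the mutant lesion contrast and to -0.30 in the genotype contrast at 4dpl. Averaged over the genotypes it left 144 genes called as higher and 8767 as lower, against 4423 and 5771 with TMM. Relative to markers Cers2 and Sptlc2 were no longer called in the averaged contrast (0.21 ± 0.30 and -0.01 ± 0.34).

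Likeness between genes was described by the Pearson correlation of log2 CPM over the 12 libraries. Genes of 1 library share its depth and its cell content, so these values carry no test. Among the 36 pairs of enzymes r ran from 0.08 to 0.97 with a median of 0.77. Cers2 and Elovl1 were the most alike (r = 0.97), Aspa and Fa2h followed closely (r = 0.96), and Gal3st1 and Sptlc2 were the least alike (r = 0.08). Of the other 13957 genes compared, those nearest to the mean profile of the 9 were Llgl1, Sc5d, Cyp51, Clcn2 and Zdhhc9 (r = 0.97 to 0.98), of which Sc5d and Cyp51 encode enzymes of cholesterol synthesis. For single enzymes the nearest gene was Tubb4a for Fa2h (r = 0.99), Anln for Ugt8a (r = 0.99), Sema6d for Elovl7 (r = 0.98), Tspan5 for Gal3st1 (r = 0.97), Zdhhc9 for Cers2 (r = 0.99) and Tada1 for Elovl1 (r = 0.97). Sptlc2 and Degs1 were nearest to widely used genes of vesicle traffic and autophagy, Rab7 (r = 0.99) and Atg9a (r = 0.95). Within groups, r with the mature oligodendrocyte markers was 0.95 for Aspa and Fa2h, 0.92 for Gal3st1, -0.02 for Sptlc2 and 0.07 for Degs1. With the 3 neutrophil markers r was 0.70 for Degs1. All 12 libraries entered these values, and the part of the pair that stood apart in marker content was not tested.

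The pathways around these enzymes were followed in 6 lists that exclude the 9, by the contrast averaged over genotypes, in which edgeR called no listed gene as lower and 14.2% of all genes as higher. Sphingoid base and ceramide synthesis had 7 of 13 tested genes called as higher (median log2 fold change 0.58). Sptssa, the small activating subunit of serine palmitoyltransferase, rose by 1.08 ± 0.16 (edgeR, adjusted p = 0.00220), Ormdl2, one of the subunits that hold the enzyme back, by 0.71 ± 0.16 (adjusted p = 0.00699) and the ceramide synthase Cers5 by 0.64 ± 0.15 (adjusted p = 0.00778). Activating and restraining subunits of the enzyme were both among the called genes, with Sptlc1, Kdsr, Ormdl1 and Ormdl3 (chosen for mention after their values were seen) as the others. Sptssb did not pass the filter on low counts. In the elongation list 3 of 15 genes were called as higher (median 0.44), namely Hsd17b12 (1.04 ± 0.20, edgeR, adjusted p = 0.00393) and Hacd3 (1.03 ± 0.23, adjusted p = 0.00605), which act in the elongation cycle after the condensing enzyme, and Elovl5 (0.76 ± 0.24, adjusted p = 0.0233), which lengthens polyunsaturated chains. In the sphingomyelin and glucosylceramide branches 3 of 13 were called (median 0.05). These were the sialyltransferase St8sia5 (1.09 ± 0.23), the ceramide phosphoethanolamine synthase Samd8 (0.58 ± 0.13) and the ganglioside galactosyltransferase B3galt4 (0.61 ± 0.16).

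By edgeR, breakdown of sphingolipids held the largest share of called genes among the 6 lists, with 13 of 22 called as higher (median 0.71). Limma voom called 15 of 22 breakdown genes and 9 of 12 genes of peroxisomal breakdown, so this order depended on the tool. Galc, the lysosomal galactosidase that removes the sugar added by Ugt8a, rose by 1.18 ± 0.15 (edgeR, adjusted p = 0.00190), with log2 fold changes of 1.35 in control and 1.02 in mutant. The galactosidase Glb1 rose by 1.48 ± 0.22 (edgeR, adjusted p = 0.00220). Peroxisomal breakdown of very-long-chain acids had 6 of 12 called as higher (median 0.55), with Ehhadh at 1.55 ± 0.31 and Hsd17b4 at 0.96 ± 0.19, both enzymes of peroxisomal beta-oxidation. The N-acetylaspartate and acetate list had 4 of 11 called as higher (median 0.54), led by the mitochondrial acetyl-CoA synthetase Acss1 (1.21 ± 0.26), the citrate lyase Acly (0.89 ± 0.25) and Folh1 (0.81 ± 0.26), a peptidase that releases glutamate from N-acetylaspartylglutamate. In the control contrast, where edgeR called 10.1% of all genes and 5.12% as higher, the 6 lists, in the order given, had 1, 2, 0, 11, 4 and 1 genes called as higher. In the mutant contrast, where edgeR called 0.135% of all genes, and in both genotype contrasts it called none of them. Between genotypes at 4dpl, DESeq2 on the groups compared called 2 sphingomyelin and glucosylceramide branch genes and 1 breakdown gene as higher. DESeq2 on all 12 libraries and limma voom each called 1 breakdown gene there. In the lesion contrasts DESeq2 on all 12 libraries called 4, 2, 1, 11, 5 and 3 of the same lists as higher in control. In mutant it called 1, 2, 3, 6, 3 and 0, with 1 gene of the first list called as lower. EdgeR called no gene of these lists in the interaction, so a difference between the genotypes in the lesion response is not shown by these counts. The microglia and macrophage markers named above moved with these lists as well, and many lysosomal genes are also expressed by those cells.

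**Figure D4:**
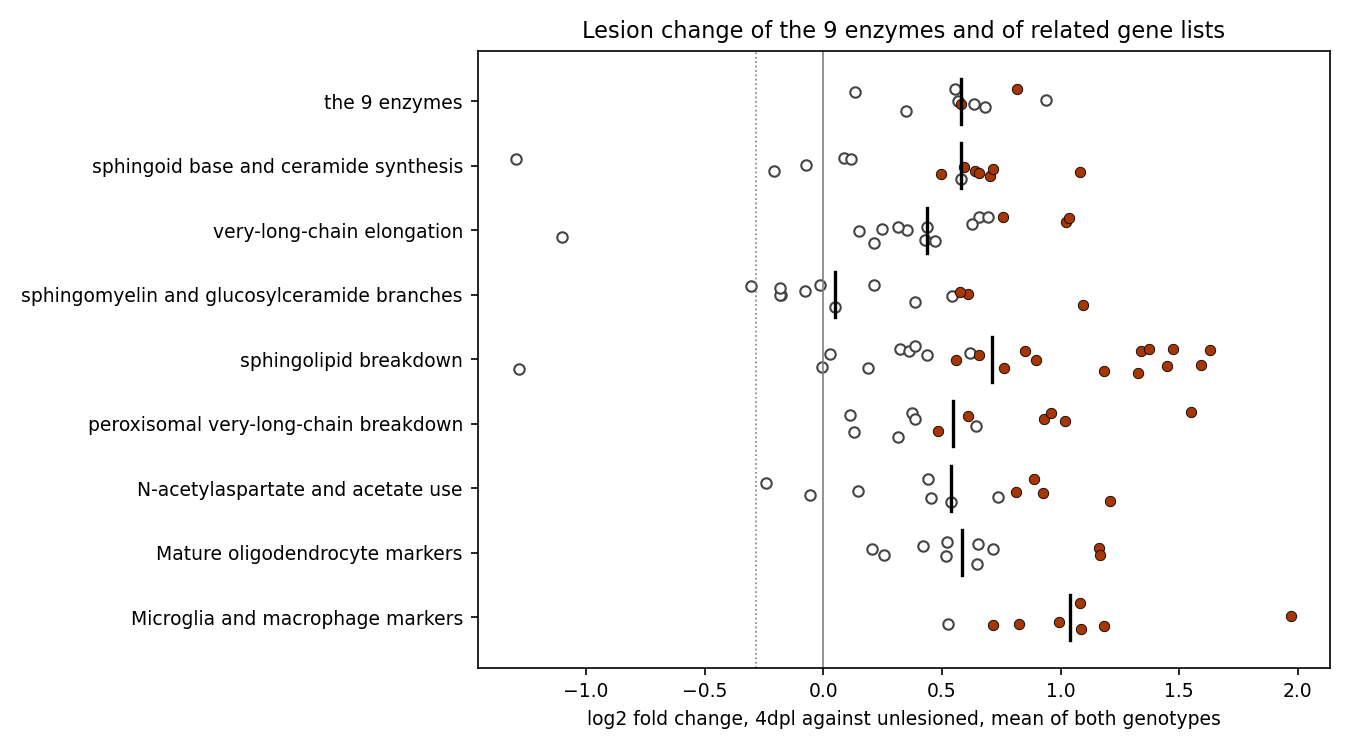
Log2 fold change at 4dpl averaged over genotypes (horizontal axis) for each gene of the 9 enzymes, the 6 pathway lists and 2 marker lists (vertical axis, points spread for visibility), filled where called by edgeR, with a bar at each list's median, a solid line at 0 and a dotted line at the median of all genes (-0.28). The 9 enzymes have a median of 0.58 with 2 filled points, and sphingolipid breakdown has a median of 0.71 with 13 of 22 filled.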

How the data were processed

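RNA-seq of 12 libraries was used. Per the paper's methods and the labels, the authors aligned paired-end reads to mm10 (BWA in the methods, STAR in the submitters' processing notes) and deposited 1 table of raw gene counts per library, made with featureCounts on Ensembl GRCm38 genes. DESeq2 1.2.5 is named in the notes. The 37 mitochondrial genes listed had a count of 0 in every library. No deposited fold changes were used.

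Here the counts were fitted whole with edgeR 4.0.16 (R 4.3.3), after filterByExpr and TMM scaling, as a model of 4 group means over all 12 libraries, with the quasi-likelihood test. A gene was called at p below 0.01 and a Benjamini-Hochberg adjusted p below 0.05 over 31109 genes. SE is the absolute log2 fold change over the square root of the F statistic. CPM values are TMM-scaled. The p-values measure the spread between the deposited libraries.

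The 9 genes and all lists were chosen with earlier results of these data known. Named genes are the 9, the 3 of each pathway list with the smallest p in the averaged contrast, all called genes of lists with at most 3, and the nearest genes by correlation (mean log2 CPM of at least 1). A Schwann cell marker, Pmp2, and Sptssb did not pass the filter. A few genes that this rule names are not reported here.

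Alternatives were DESeq2 1.42.0, limma voom with sample weights (limma 3.58.1), edgeR on the groups compared, RLE scaling, scaling on 10 oligodendrocyte markers, other filters, legacy = FALSE, a looser threshold, a replicate block and leaving out each library. Leaving out a pair of libraries together was added after seeing the data. Because the pair was chosen by marker content, this fit lowers mutant 4dpl and raises unlesioned mutant values of enzymes that follow the markers. It is therefore not an independent check of the comparisons that include these libraries. All fits were tested on simulated data. Exons were compared with GENCODE on GRCm38 and start regions taken from RefSeq (GRCm38.p6).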

Additional observations from a re-analysis of the deposited data

Results flagged for a closer look

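The lesion change of Gal3st1 in mutant minus that in control was 1.88 on the log2 scale, the only one of the 9 interactions with an unadjusted p below 0.05 (edgeR, unadjusted p of 0.010, adjusted p = 1.0). It is listed here because the change differed between the genotypes by the test of the difference before adjustment. Gal3st1 was lower in 3 of 3 control 4dpl libraries than in any unlesioned control library. The 3 mutant 4dpl libraries were above the unlesioned mutant median of 67.6 CPM, but the mutant groups overlapped. The difference kept its sign in 21 of 21 alternatives, with a lowest adjusted p of 0.743. It ran from 0.74 (edgeR, unadjusted p of 0.0858) without the pair of libraries that stood apart in oligodendrocyte content to 2.23 without mutant unlesioned replicate 1.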

How the results depend on the processing

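The number of the 9 enzymes called depended on the test and the libraries. In control, 0 became 1 with DESeq2 on the groups compared, 3 with limma voom and 0 to 2 with 1 library left out. In mutant, 0 became 1 with limma voom, 1 at an adjusted p below 0.10 and 0 to 2 with 1 library left out. Averaged over genotypes, 2 remained 2 with DESeq2 (Cers2 and Ugt8a in place of Cers2 and Sptlc2) and became 1 with RLE size factors, 0 with marker scaling, 0 with at least 10 counts in every library, 5 with no filter, 5 with limma voom, 5 at an adjusted p below 0.10, 0 without the pair of libraries chosen after seeing the data and 0 to 5 with 1 library left out. At 4dpl, 0 became 1 (Gal3st1) in both DESeq2 fits. In unlesioned tissue and for the interaction 0 were called under every alternative run. Over all genes the 10194 averaged calls ran from 3591 with the stricter filter to 16371 at the looser threshold, the 3150 control calls from 0 with marker scaling to 9663 with limma voom, and the 42 mutant calls from 0 to 6800. Genotype calls ran from 0 to 45 unlesioned and from 0 to 611 at 4dpl.

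Of 900 enzyme values under alternatives, 813 kept direction and side of the threshold, 33 became called, 23 were no longer called and 31 changed sign. With marker scaling the sign changed for Aspa in control (-0.094), for Sptlc2 (-0.40), Degs1 (-0.62), Cers2 (-0.064), Elovl1 (-0.34), Fa2h (-0.0070) and Gal3st1 (-0.035) in mutant, for Sptlc2 (-0.010), Degs1 (-0.31), Elovl1 (-0.076), Gal3st1 (-0.56) and Aspa (-0.026) averaged, and for Degs1 (-0.10), Cers2 (-0.24) and Elovl1 (-0.37) at 4dpl. With at least 10 counts in every library it changed for Aspa in control (-0.078) and Gal3st1 averaged (-0.14), and with limma voom for Gal3st1 averaged (-0.031) and Elovl1 at 4dpl (-0.033). Without the pair of libraries it changed for Fa2h (-0.031) and Gal3st1 (-0.049) in mutant, Gal3st1 averaged (-0.42), and Cers2 (-0.10) and Elovl1 (-0.17) at 4dpl. With 1 library left out, Gal3st1 averaged ran from -0.28 to 0.33, Cers2 at 4dpl from -0.10 to 0.45 Elovl1 at 4dpl from -0.17 to 0.27, and in unlesioned tissue Ugt8a from -0.38 to 0.82, Fa2h from -0.31 to 0.51 and Aspa from -0.25 to 0.46. The cause was not tested. Of 138 further values in unlesioned tissue 14 changed sign, and of 168 interactions 31 did.

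Same-numbered libraries did not deviate together throughout (r of 0.16, 0.03 and 0.18 in control and -0.05, 0.04 and -0.07 in mutant), so the numbers were not taken as pairs. With the deposited number as a replicate block, 5 enzymes were called in the averaged contrast in place of 2, under the same limit. Each enzyme had 1692 or more counts in every library.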
